A study of Urocitellus parryii with 3 samples.

Results

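Liver miRNAs in late torpor were compared with those in post-reproduction. The animal is Urocitellus parryii, the arctic ground squirrel, a rodent that hibernates for much of the year. In late torpor the animal is cold and its metabolism is suppressed, while post-reproduction lies in the active season. The comparison covers every mouse miRNA with at least 1 probe detected on both arrays, a probe being detected where more than 50% of its spots were well above background. This rule kept 141 of 567 mouse miRNA entries. The rule set no minimum on the size of the difference, and the 141 were ranked and then grouped by position in the genome and by seed family.

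The samples were liver, and the labels give no genotype, strain, age, sex or treatment. Total RNA of animals of the same stage was mixed in equal amounts into 1 pool, and each pool was hybridised to 1 single-colour Agilent array designed for mouse miRNAs. The series holds 3 such pools: late torpor, post-reproduction and early arousal, the last being the stage in which the animal rewarms. How many animals went into each pool is not stated. With 1 array per stage there is no spread between animals, pools or arrays, so the differences have no replicate check, and effects of stage, of pool and of position on the slide cannot be told apart. Every standard error (SE) below comes from the repeated spots of a probe on the 2 arrays and covers spot spread only, as do the 95% intervals. The probes were made for mouse sequences, so a squirrel miRNA that differs from the mouse one can bind less well. Intensities of different probes are therefore not read as relative amounts of miRNA. They are set beside each other only to mark or sort members by brightness, and are added up in sums over a list.

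miRNAs are short RNAs that guide Argonaute proteins to messenger RNAs and lower their translation and stability. The bases near the 5′ end, called the seed, select most targets, so miRNAs with the same seed form a family with overlapping targets. Many miRNA genes lie in clusters that are transcribed together as 1 long precursor, which is cut into hairpins. Each hairpin gives a guide arm and a passenger (star) arm, and the passenger is usually degraded. Mature levels of miRNAs from 1 precursor can therefore differ through processing and decay as well as being tied by transcription. In liver, miR-122 is the main miRNA of hepatocytes, and in hibernators most transcription and translation slow down during torpor. The files hold no mature sequences, so none is printed, and families follow standard membership by name.

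Values are mean deposited intensities of the detected probes, in scanner units, and log2 differences are late torpor minus post-reproduction after scaling. The scaling factor of an array was the 75th percentile of its signals from the 250 probes that all 3 arrays detected, which was 349 units for late torpor, 398 for post-reproduction and 350.4 for early arousal. Scaling therefore raised late torpor 1.14-fold against post-reproduction. A difference counted as at least 2-fold or 1.5-fold (log2 of 0.585) where it also exceeded 2 times its SE and had the same sign in each measured probe. The median SE was 0.033. In the 112 members with 2 or more measured probes, the probes' differences spanned a median of 0.066 and 0.60 at most.

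miR-122 checked the tissue, at 41863 units in late torpor, 36641 in post-reproduction and 36339 in early arousal. No pancreatic marker was detected on either of the compared arrays. Of 4 muscle markers, miR-1, miR-133a and miR-133b were detected in late torpor, by 1 probe each at 14.3 to 21.4 units, and none in post-reproduction. Detection covered 158 mouse miRNAs in late torpor and 143 in post-reproduction. Negative control spots had a median of 1.69 and an SD of 4.13 in late torpor, against 1.21 and 11.6 in post-reproduction. The array also carries 10 viral entries. The brightest of them read 26.5 units in late torpor and 26.6 in post-reproduction, and 37 of the 141 members were at or below it on at least 1 of these arrays.

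The differences were mostly small. Of the 141 members, 120 lay within 1.5-fold of equal, and the middle of the ranking ran from -0.13 at the lower quartile to 0.36 at the upper. The median was 0.13, and 91 members (64.5%) were above 0. Where 0 falls depends on the scaling, since other scalings moved this median to between -0.43 and 0.021. The order of the members does not move with a scaling that shifts a whole array, so groups are described below by their members' place relative to the median of all 141 as well, which 70 members (49.6%) exceed by definition.

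At least 2-fold higher in late torpor were 3 members (2.13%), and 1 was at least 2-fold lower (0.709%). At the 1.5-fold rule 14 were higher (9.93%) and 7 lower (4.96%). The split was 7 and 7 when the arrays were scaled on all probes or quantile normalized, 7 and 8 when they were scaled on the probes detected on the 2 arrays or not scaled, 8 and 7 on the median, 3 and 26 on all probes with low spots as deposited, and 3 and 44 on the positive control probes. It was 3 and 12 on the total gene signal, where the fold alone counted, without the SE and the probe signs. Measured from the median of all members, 7 lay at least 1.5-fold above it (4.96%) and 7 at least 1.5-fold below it (4.96%). These counts stay as they are when an array's log2 values all move by the same amount. Quantile normalization changed them to 8 and 7, and the total gene signal, a separate measure in the files, to 7 and 9. With normexp background correction they were 3 and 0, and the counts at 1.5-fold were 4 and 0, leaving miR-144, miR-486, miR-451 and miR-15b. Among the brighter 50% of members they were 4 and 1. The 7 above were miR-144, miR-486, miR-451, miR-15b, miR-31*, miR-494 and miR-452. The 7 below were miR-211, miR-200b, miR-378, miR-320, miR-152, miR-186 and miR-200a.

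**Figure D1:**
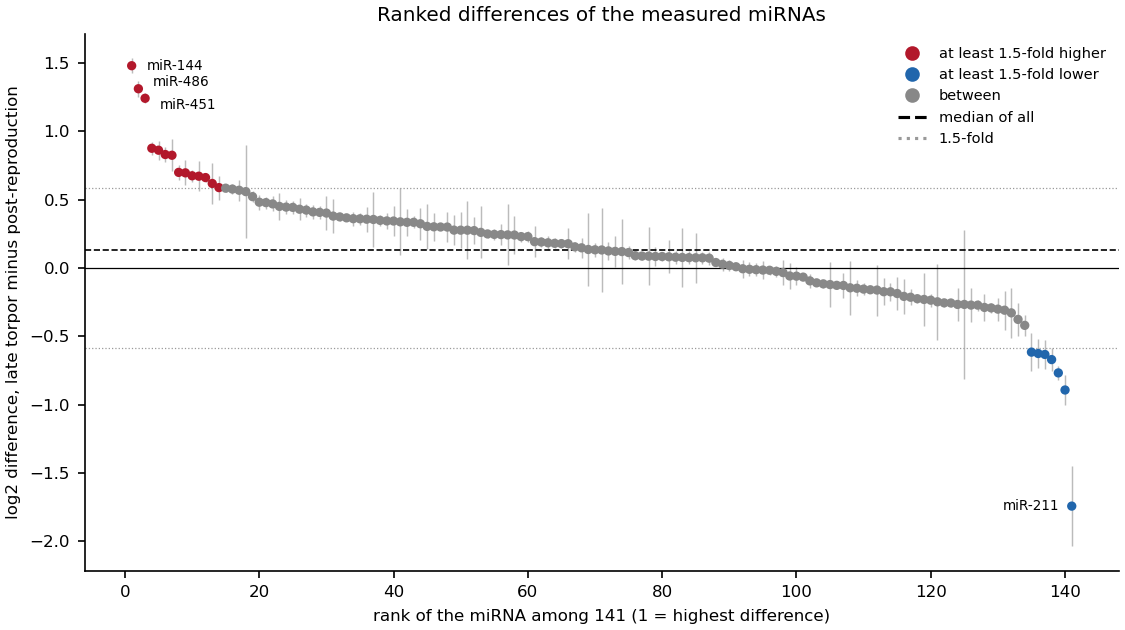
Log2 difference (late torpor minus post-reproduction) of the 141 measured miRNAs against their rank, with 95% intervals from spots as bars. Red and blue points are the 14 members at least 1.5-fold higher and the 7 at least 1.5-fold lower, the dashed line is the median of 0.13, and miR-211 stands 0.85 below the next member.

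The 3 highest members are miRNAs of red blood cells. miR-144 and miR-451 come from 1 precursor that is switched on as red cells mature, and miR-451 is unusual in being cut by Argonaute 2 and not by Dicer. miR-144 read 76.7 units in late torpor, 31.4 in post-reproduction and 31.3 in early arousal, a difference of 1.48 ± 0.03 (2.79-fold, 95% interval from spots 2.68 to 2.90). miR-451 read 3032, 1465 and 1856 in the same order, a difference of 1.24 ± 0.02 (2.36-fold). miR-486, whose gene lies in that of the red cell membrane protein ankyrin-1, read 114, 52.4 and 67.6, a difference of 1.31 ± 0.03 (2.48-fold). Processing moved these sizes beyond their spot intervals. The lowest difference of miR-144 was 0.753, with normexp background correction. For miR-486 it was 0.752 and for miR-451 0.682, both when scaled on the positive control probes. In each of the 3 the late torpor array was the highest of the series, and their probes, a pair for each, had differences from 1.24 to 1.49. Being higher than in post-reproduction follows from the ranking, and the comparison with early arousal uses the same late torpor array. The early arousal values are thus no separate support. The summed intensity of miR-144, miR-486 and miR-451, most of it miR-451, was 3223 in late torpor, 1549 in post-reproduction and 1955 in early arousal, before scaling. In bulk liver RNA, more cells of a type and more RNA per cell cannot be told apart, and neither the number of red cells nor the blood left in the tissue is given. After these 3 the ranking drops by 0.37 to miR-15b.

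Ranks 4 to 7 hold members of unrelated origin. miR-15b, which with miR-16 restrains cyclins and the survival factor Bcl2, read 291 units in late torpor, 182 in post-reproduction and 226 in early arousal (0.88 ± 0.02). miR-31*, the passenger arm of miR-31, read 53.6, 33.7 and 50.2 (0.86 ± 0.04). In both the 2 hibernation arrays lay above post-reproduction, and for miR-31* they were close to each other. miR-494, from the imprinted Dlk1-Dio3 region, read 104, 67.7 and 143 (0.83 ± 0.03). miR-452, which lies in an intron of the GABA receptor gene Gabre, read 32.6, 21.1 and 39.7 (0.82 ± 0.06), and its post-reproduction value is below the brightest viral entry. For miR-494 and miR-452 late torpor sat between post-reproduction and early arousal.

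Ranks 8 to 12 include 2 white blood cell miRNAs. miR-1224, a mirtron whose hairpin is a whole short intron, read 292 units in late torpor, 211 in post-reproduction and 612 in early arousal (0.70 ± 0.03), and miR-709 read 41.9, 29.6 and 99.9 (0.70 ± 0.05, 1 probe). Both were brightest in early arousal. miR-223, which is made by neutrophils and other myeloid cells, read 368, 267 and 265 (0.67 ± 0.02), so late torpor stood apart from arrays that were nearly equal in deposited units. miR-142-5p, a miRNA of all blood lineages, read 22.2, 16.0 and 12.5 (0.67 ± 0.06), below the viral entry on each array. miR-15a read 252, 182 and 238 (0.66 ± 0.02). The remaining members past 1.5-fold were miR-350 (0.62 ± 0.08) and miR-128 (0.59 ± 0.04), while miR-16 at 0.58 and miR-30e at 0.58 were the next in order and just short of it.

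At the other end, miR-211 stood alone. It lies in an intron of Trpm1 and is best known from pigment cells. Its mean was 9.54 units in late torpor, 35.3 in post-reproduction and 5.84 in early arousal, a difference of -1.74 ± 0.15 (3.35-fold lower). The 2 probes counted had 8.07 and 11.0 units in late torpor, next to the lowest spot well above background there (8.49 units), and 31.4 and 39.2 in post-reproduction. A further probe, detected in post-reproduction alone of these 2 arrays, read 7.11 and 19.8. The late torpor level is thus close to the limit of detection, and the size of the fold rests on 10 spots per array. The difference of miR-211 was -0.31 with normexp, short of 1.5-fold, and -0.975 with no filter on dim probes, where it no longer passed the rule.

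miR-200b was the second lowest member, and miR-200a was the least negative of the 7. They are made from 1 precursor in epithelia, in liver mainly those of the bile ducts, and repress the Zeb factors that drive loss of epithelial character. miR-200b read 35.8 units in late torpor, 75.5 in post-reproduction and 40.2 in early arousal (-0.89 ± 0.06, 1.86-fold lower), and miR-200a read 20.6, 35.7 and 25.02 (-0.62 ± 0.07). In both the post-reproduction array was the highest of the series. Each rested on 1 probe detected on both arrays, and the second probe of each, detected in post-reproduction alone, differed by -0.97 for miR-200b and -0.67 for miR-200a. The other 3 listed miRNAs of this group (miR-200c, miR-141 and miR-429) were not measured.

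miR-378 lies in the first intron of Ppargc1b, the gene of a coactivator of mitochondrial metabolism. Its guide arm read 55.8 units in late torpor, 109 in post-reproduction and 45.1 in early arousal (-0.77 ± 0.03, 1.70-fold lower). miR-320, a miRNA made without Drosha, read 26.9, 48.8 and 30.3 (-0.67 ± 0.04, 1 probe). Its late torpor value was close to the brightest viral entry (26.5 units). The second probe of miR-320, detected in post-reproduction alone of the compared arrays, read 8.49 and 13.9 and differed by -0.52, short of 1.5-fold. miR-152, in an intron of the coatomer gene Copz2, read 20.4, 35.5 and 20.6 (-0.63 ± 0.05). miR-186 read 25.9, 45.9 and 24.9 (-0.63 ± 0.05). In deposited units each of the 7 members lower by the 1.5-fold rule was also higher in post-reproduction than in early arousal. Being higher than in late torpor follows from the rule, and both comparisons use the same post-reproduction array. The early arousal values are thus no separate support. In late torpor 4 of these 7 (miR-211, miR-200a, miR-152 and miR-186) were below the brightest viral entry. Of these, miR-211 alone lay next to the lowest spot well above background there (8.49 units). With normexp none of the 7 reached 1.5-fold, the differences running from -0.061 for miR-200a to -0.37 for miR-378.

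The next members from the bottom lay short of 1.5-fold. miR-222, which restrains the cell cycle inhibitor p27, read 34.5 units in late torpor, 53.0 in post-reproduction and 28.5 in early arousal (-0.42 ± 0.04). miR-204, the paralog of miR-211 in Trpm3, read 30.4, 43.3 and 34.4 (-0.38 ± 0.06). miR-466f-3p, from the repeat-rich cluster inside Sfmbt2, was at -0.33, miR-574-3p at -0.31 and miR-184 at -0.30. In deposited units the post-reproduction array was the brightest for all of these, too, though they rank here for being lower in late torpor. After scaling, early arousal minus post-reproduction was -0.71 for miR-222 and miR-184, -0.18 for miR-466f-3p, -0.099 for miR-204 and -0.0056 for miR-574-3p.

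**Figure D2:**
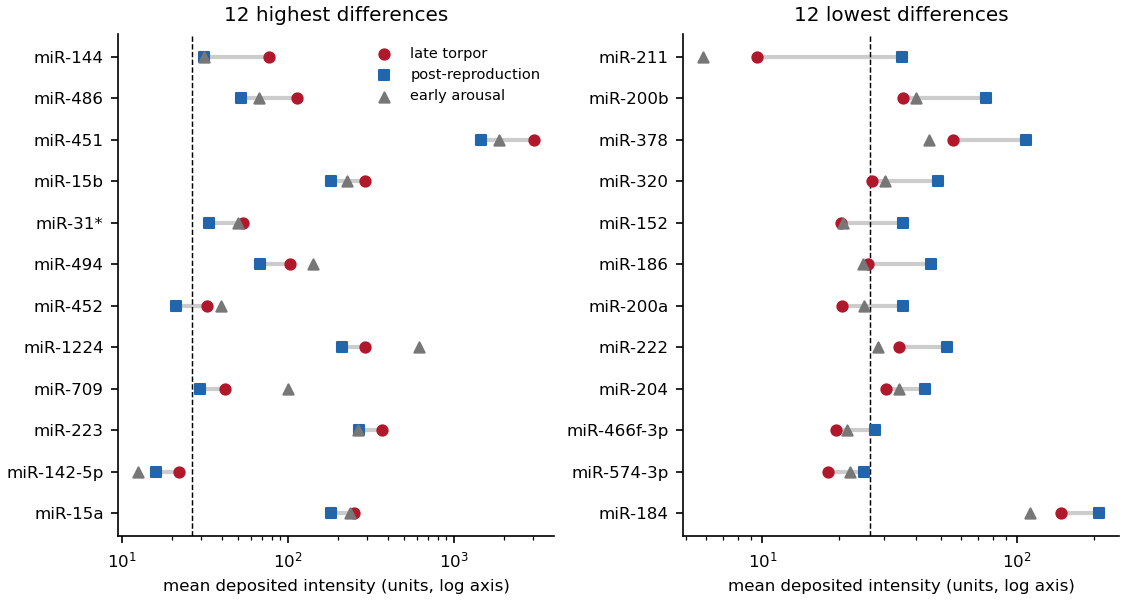
Mean deposited intensity, in scanner units on a log axis, of the 12 members with the highest and the 12 with the lowest differences on each of the 3 arrays, with the brightest viral entry in late torpor (26.5 units) as a dashed line. In these unscaled units miR-144, miR-486 and miR-451, ranked for being higher in late torpor than in post-reproduction, are highest in late torpor. Each of the 12 on the right, chosen for being lower in late torpor, is highest in post-reproduction.

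Position in the genome was taken from the target coordinates in the files (mouse build mm9), which give 1 locus per entry even where a miRNA has several. Of the members, 62 fell into 27 groups with targets within 10 kb of each other, of which 16 joined separate hairpins and 11 were the arms of 1 hairpin. Members with targets within 10 kb of each other lay close together in the ranking. Over the 31 pairs from separate hairpins of a cluster the median gap between differences was 0.091, against 0.35 over all 9870 pairs of members, and 25 of the 31 (80.6%) differed by less than 0.25, against 37.4% of all pairs. These pairs share members, and some, such as miR-15a with miR-16, are also of 1 seed family, so their probes could share signal. They are given as a description. Among the 16 clusters, 4 had each member above the median of all, 8 had each member below it and 4 lay on both sides. Of these 8, miR-145 came above it with normexp background correction and with no filter on dim probes, and let-7a with no filter.

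The cluster of miR-144 and miR-451, with targets on chromosome 11 at 77886549 to 77886709, had the highest median (1.36). The cluster of miR-15a and miR-16 on chromosome 14, at 62250773 to 62250933, followed with 0.66 and 0.58. It lies in the Dleu2 locus, which is lost in many chronic lymphocytic leukaemias. In the miR-17 to 92 cluster, known for promoting growth and driven by Myc, the 4 measured members (chromosome 14, 115443272 to 115443718) were at 0.57 for miR-19a, 0.45 for miR-20a, 0.52 for miR-19b and 0.33 for miR-92a. Its paralog in an intron of Mcm7 (chromosome 5, 138606560 to 138607031) held miR-25 at 0.48, miR-93 at 0.43 and miR-106b at 0.41. miR-20b, of a further copy on the X chromosome, was at 0.36. All 8 of these growth-linked members lay above the median of all, in a band 0.23 wide, and none reached 1.5-fold.

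Among the clusters below the median, the gap within a cluster ran from under 0.01 to 0.38. miR-23a and miR-27a, which share a precursor with a copy of miR-24, both stood at -0.26, with SEs of 0.015 and 0.014 and with readings of 376 and 173 units in late torpor and 507 and 233 in post-reproduction. The paralogous cluster on chromosome 13 (63401841 to 63402580) lay higher, with miR-23b at 0.0087 ± 0.01, miR-27b at 0.084 ± 0.02 and miR-24, which both clusters encode, between them and the first cluster at -0.067 ± 0.01. The gap between miR-27a and miR-27b was 0.34 ± 0.02 and that between miR-23a and miR-23b 0.27, in the same direction. let-7b and let-7c, whose targets lie at 85537049 to 85537776 on chromosome 15, stood at -0.27 and -0.24. miR-221 and miR-222 on the X chromosome (18723433 to 18724042) stood at -0.23 and -0.42, and miR-199a-5p, miR-199b and miR-214 of fibroblasts and stellate cells, on chromosome 1, at -0.016, -0.025 and -0.16. miR-143 and miR-145, the smooth muscle pair, were at 0.079 and 0.074.

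Not every cluster held together. On chromosome 17, at 17967164 to 17967804, a cluster was split in its middle. There miR-99b (0.28) and miR-125a-5p (0.24) lay above the median and let-7e (-0.17), encoded between them, lay below it. In the cluster of let-7a, let-7f and let-7d on chromosome 13 (48631447 to 48633627), let-7a at 0.087 and let-7f at 0.018 were close, while let-7d stood at -0.29. In both clusters 1 let-7 member stood below its neighbours. miR-30d (0.25) and miR-30b (-0.013), whose targets span 3802 bases, differed by 0.26. Widening the distance to 50 kb gave 30 groups with 69 members and added miR-193 with miR-365 (0.47 and 0.23), miR-532-5p with miR-500 (0.35 and 0.28) and miR-99a with miR-125b-5p (0.18 and 0.23).

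**Figure D3:**
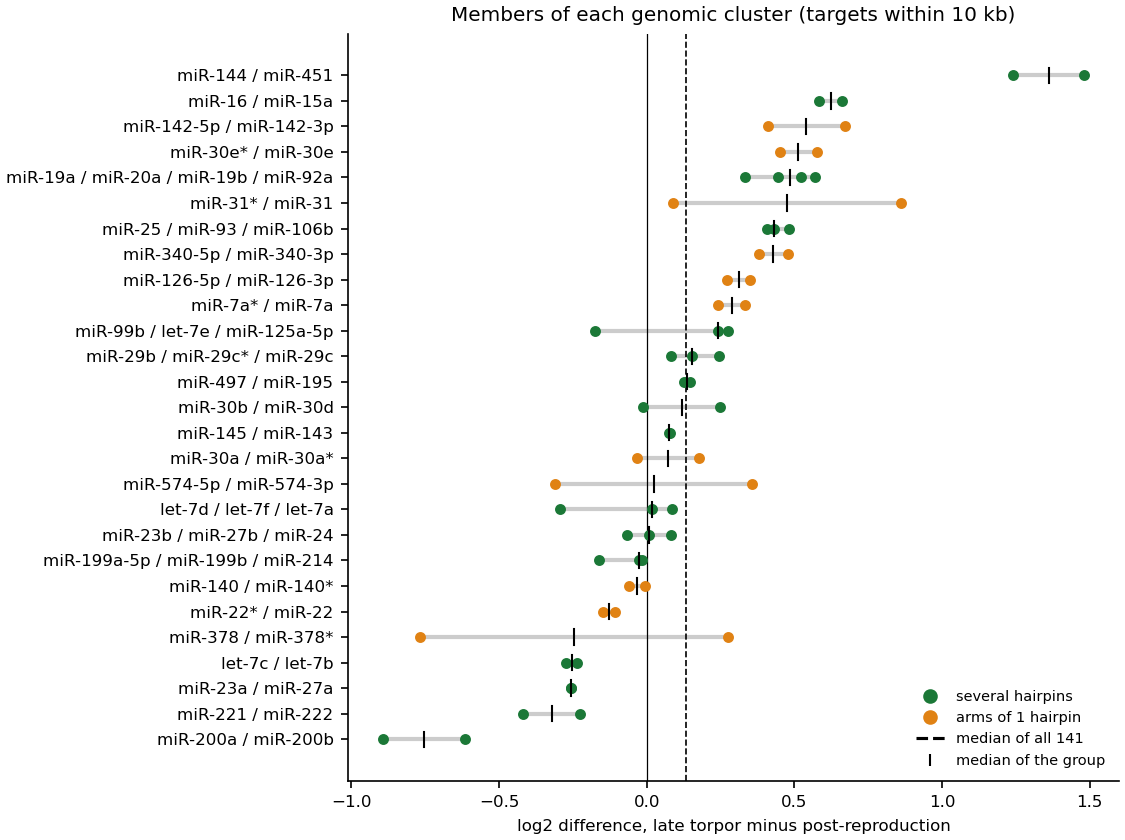
Log2 difference (late torpor minus post-reproduction) of each member of the 27 genomic clusters, green where a cluster joins separate hairpins and orange where it is the 2 arms of 1 hairpin. Each small vertical bar is a cluster's median and the dashed line the median of all 141 (0.13); miR-23a with miR-27a and miR-143 with miR-145 nearly coincide, while the arms of miR-378, miR-31 and miR-574 lie far apart.

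The 2 arms of a hairpin come from the same transcript but are read by different probes. Over the 13 such pairs the median gap was 0.13. The arms of miR-22 were 0.040 apart, those of miR-140 0.054, those of miR-126 0.075 and those of miR-340 0.099. In 3 hairpins the arms parted by more than 0.5. The guide miR-378 was at -0.77 and its star arm at 0.28, a gap of 1.04 ± 0.07, with miR-378* at 17.0 units in late torpor and 15.9 in post-reproduction, below the viral entry. miR-31* was at 0.86 and its guide miR-31 at 0.089 (138 and 148 units), a gap of 0.77 ± 0.04. miR-574-5p was at 0.36 and miR-574-3p at -0.31, a gap of 0.67 ± 0.09. In the miR-142 hairpin, the 3p arm (149 units in late torpor, 129 in post-reproduction and 97.1 in early arousal) was at 0.41 and the dimmer 5p arm at 0.67.

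Of the seed families, 20 had 2 or more measured members, 59 in all. In 6 families each member lay above the median of all, in 8 each lay below it, and 6 had members on both sides. Same-seed pairs had a median gap of 0.19 over 89 pairs. This is wider than between hairpins of 1 cluster, though some pairs belong to both sets, and many same-seed pairs have separate genes. Probes of near-identical members can share signal, which could not be checked without sequences, so members of a family need not be separate measurements.

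The miR-19 family had the highest median (0.54), followed by the miR-17 family (0.42, with miR-20a, miR-20b, miR-93 and miR-106b within 0.085 of each other) and the family of miR-25 and miR-92a (0.41). miR-17 itself was not measured. The family of miR-15 and miR-16, which restrains the cell cycle, fell into separate groups. miR-15b (0.88), miR-15a (0.66) and miR-16 (0.58) were at ranks 4, 12 and 15, while miR-497 (0.15), miR-195 (0.12) and miR-322 (0.12) sat at the median of all. miR-195 read 104 units in late torpor and 105 in post-reproduction, and miR-497 80.7 and 81.9, so deposited values were nearly equal. The smallest gap between the upper and the lower group, miR-16 against miR-497, was 0.44 ± 0.04. Whether miR-195, miR-322 and miR-497 lie just above or just below the median changed with 8 of the other settings.

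let-7 miRNAs accumulate as cells differentiate and hold back growth. The family had 9 of 9 members below the median of all, with a family median of 0.018. Exceptions were let-7g after quantile normalization, let-7i with the brightest probe, and let-7a and let-7i with no filter. Within it, let-7d (-0.29), let-7b (-0.27), let-7c (-0.24) and let-7e (-0.17) were low, and let-7f (0.018), miR-98 (0.072), let-7g (0.075), let-7a (0.087) and let-7i (0.11) lay close to 0. let-7b read 1060 units in late torpor, 1409 in post-reproduction and 875 in early arousal, and let-7a 3280, 3503 and 2925. The gap between let-7e and let-7f, the neighbours across this split, was 0.19.

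Smaller families lay on either side of the median of all. miR-103 and miR-107, which lie in genes of pantothenate kinases and dampen insulin signalling, stood together at -0.095 ± 0.03 and -0.12 ± 0.02, below the median of all. miR-29, a brake on collagen genes, had each of 3 members above the median: miR-29a at 0.36 (1900 against 1709 units), miR-29c at 0.25 and miR-29b at 0.15. miR-29b came below the median after quantile normalization and with normexp background correction. miR-26a stood at 0.040 and miR-26b at -0.13, both below the median of all.

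Some families spread widely. In the family of miR-148 and miR-152, miR-148a (1193 units in late torpor, 1058 in post-reproduction and 907 in early arousal) was at 0.37 and miR-148b at 0.24, but miR-152 was at -0.63, a gap of 1.01 ± 0.06 from miR-148a. The miR-30 family ran from miR-30e at 0.58 ± 0.02, through miR-30d (0.25), miR-30a (0.18) and miR-30c (0.074), to miR-30b at -0.013 ± 0.02. The star arms followed the same order, with miR-30e* at 0.45 and miR-30a* at -0.034. In the miR-193 family, miR-193 was at 0.47 (183 and 147 units) and miR-193b at -0.017 (973 and 1108 units). miR-204 and miR-211 were both low but 1.37 ± 0.16 apart, the widest same-seed gap. The p53 target miR-34a was at 0.084 (74.7 and 81.3 units) and miR-449a at 0.13 (638 and 641), so neither stood out between these stages.

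Narrower families were that of miR-99 and miR-100, with miR-100 at 0.42, miR-99b at 0.28 and miR-99a at 0.18, and miR-125, with 0.24 and 0.23. Both lay above the median of all, apart from miR-99a after quantile normalization, miR-125a-5p with the total gene signal, and miR-99b and miR-125a-5p with no filter.

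**Figure D4:**
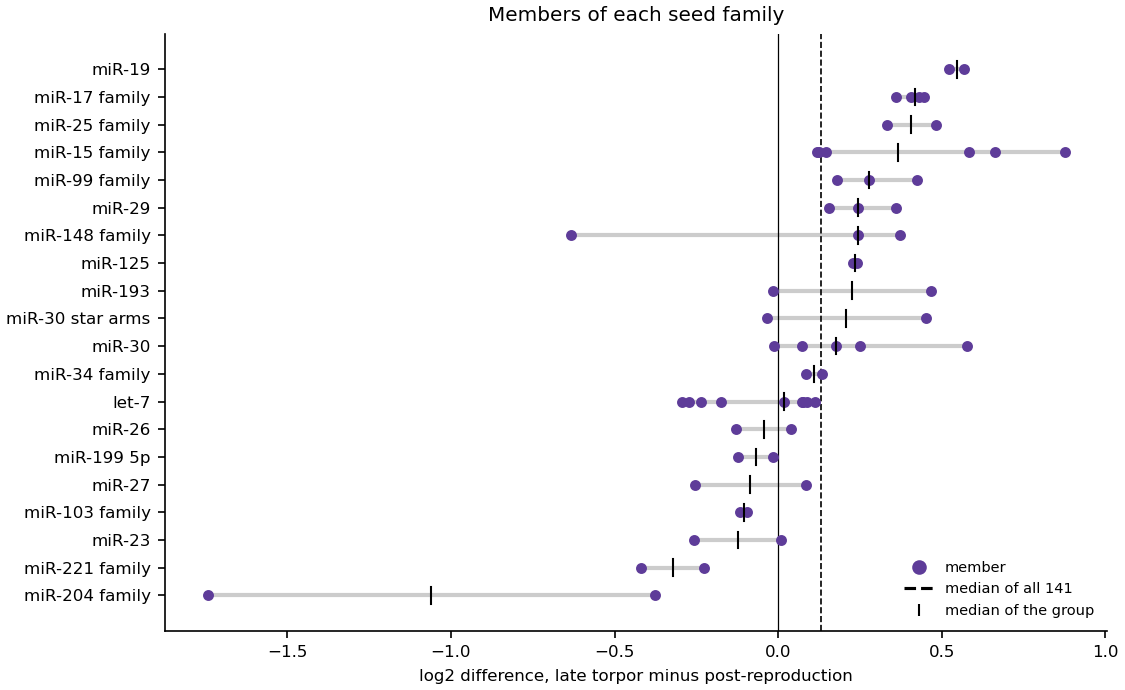
Log2 difference (late torpor minus post-reproduction) of each member of the 20 seed families with 2 or more measured members, ordered by family median (small vertical bars), with the median of all 141 as a dashed line. The let-7 points end short of the dashed line, the miR-15 family points form 2 groups, and miR-152 and miR-211 lie far from the rest of their families.

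Markers of cell types were set beside these results. Summed intensities of the lists, here and below, are in deposited units, before the scaling that raised late torpor 1.14-fold against post-reproduction. The brightest members weigh most in them, as miR-122 does in the hepatocyte sum (41863 units in late torpor). The hepatocyte list had 7 of 7 members measured, at 0.027 for miR-194 to 0.47 for miR-193, with miR-122 at 0.34 ± 0.03, miR-192 at 0.19 and miR-365 at 0.23. Its median was 0.30, with 6 of 7 above the median of all and none at 1.5-fold, and its summed intensity was 47496 units in late torpor and 42105 in post-reproduction. The leukocyte list had 6 of 7 measured, with 5 of 6 above the median of all and 2 of 6 past 1.5-fold (miR-223 and miR-142-5p). Over all 141 members 49.6% lay above the median and 9.93% were at least 1.5-fold higher. Both miR-223 and miR-142-5p lost the 1.5-fold call with each other scaling, quantile normalization, normexp and the total gene signal. miR-150 was at 0.34 and miR-181a at 0.30, while miR-146a, induced by NF-kappaB, was at -0.27 ± 0.06, and miR-155 was not measured. The list's summed intensity was 633 units in late torpor and 518 in post-reproduction.

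Endothelial markers went both ways, with miR-126-3p at 0.35 and miR-126-5p at 0.27 against miR-221 and miR-222 on the low side. Before scaling their summed intensity was 1299 against 1295 units, most of it miR-126-3p (973 and 869). Of the mesenchymal list 4 of 5 were measured, all of them below the median of all (apart from miR-145 with normexp and with no filter), with sums of 169 and 192 units before scaling. The listed entry without a value was miR-199a-3p. The entry miR-199b, not on the list, maps next to miR-199a-5p on chromosome 1 and stood at -0.025. The 2 measured epithelial markers, miR-200a and miR-200b, summed to 56.3 units in late torpor and 111 in post-reproduction. Of 4 neural markers 1 was measured, miR-128. The part of red cells, leukocytes and bile duct cells in the differences of other members was not tested.

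The size of a difference did not go with brightness in 1 direction. Members were split into 3 equal sets of 47 by mean log2 intensity, and the median difference was 0.13 in the dimmest, 0.089 in the middle and 0.15 in the brightest. The SD among members was 0.44, 0.46 and 0.32 in the same order. None of the 7 members lower by the 1.5-fold rule lay in the brightest set, which held 5 of the 14 that were higher. Of the 104 members brighter than the brightest viral entry on both arrays, 11 were at least 1.5-fold higher and 3 lower (miR-200b, miR-378 and miR-320).

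**Figure D5:**
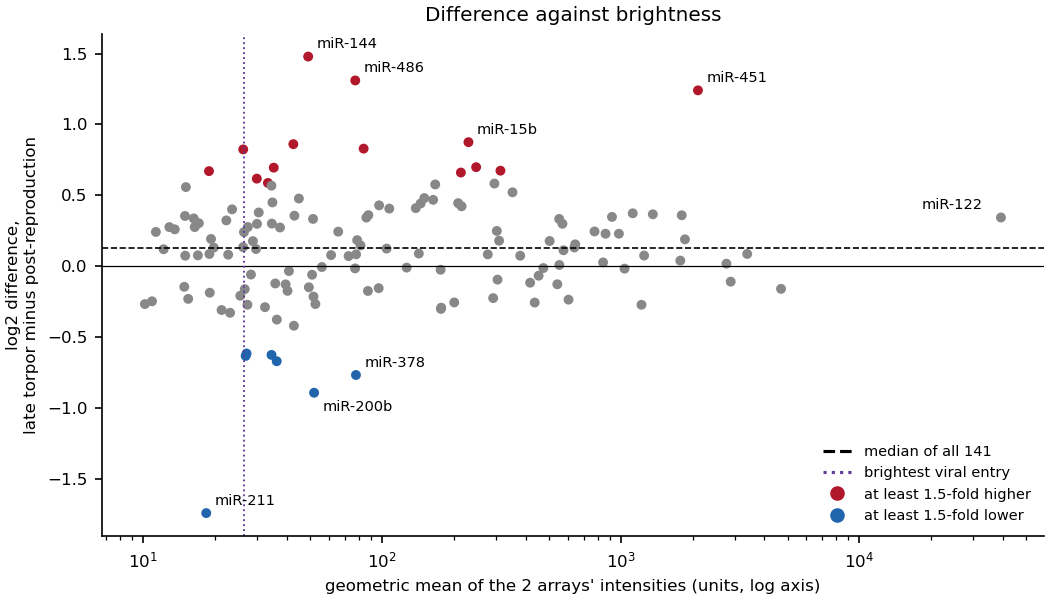
Log2 difference (late torpor minus post-reproduction) of each member against the geometric mean of its intensities on the 2 arrays (scanner units, log axis), coloured as in the ranking, with the dashed line at the median of all 141 and the dotted line at the brightest viral entry. miR-451 keeps its difference of 1.24 at high intensity, while miR-211 lies below the viral entry.

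Detection on 1 of the 2 arrays gave 19 further entries, 17 in late torpor and 2 in post-reproduction, none of them brighter than the brightest viral entry. For these the array without detection gives only a bound, the brightest probe against the higher of its own value and the lowest spot well above background there. The 3 largest bounds were for 2 muscle miRNAs and a star arm. On the late torpor side the bound was at least 2.27-fold higher for miR-133b (21.4 against 8.76 units), at least 2.06-fold for miR-29b* (19.4 against 9.07) and at least 1.86-fold for miR-1, the main miRNA of heart and skeletal muscle (17.6 against 7.87). The bound for miR-133a, another muscle miRNA, was at least 1.51-fold (14.3 against 6.64). The part of muscle RNA in other differences was not tested. In the other direction miR-181b was at least 1.18-fold and miR-324-3p at least 1.14-fold higher in post-reproduction. The remaining 407 mouse entries were detected on neither array.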

How the data were processed

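The deposited values are intensities of 1-colour Agilent miRNA arrays. Feature Extraction 9.5.3.1 made them, per the submitters' processing notes. Per the file headers, a fitted spatial background trend was subtracted, and no step made arrays comparable. The flags for detection and outliers, other values deposited in the same files, come from the same program. A series table deposited by the authors equals the scanner intensity at each of 12493 spots. Control spots and outlier spots (280 in late torpor, 317 in post-reproduction) were left out. Log2 intensities were averaged over spots, then over the probes detected on both arrays, after scaling on the 75th percentile. No spot of these probes was at or below 0 or saturated. No test was made, since each stage is 1 array, and precision is limited by their number. Coordinates are those of probe targets in the files. Seed families had been planned from bases 2 to 8, but no sequences were at hand, so membership by name was used. Named in full are the 12 highest and 12 lowest differences, members of clusters, families and cell type lists, and the 3 largest bounds each way. Members and lists were chosen with earlier results of these data known. The calculation was tested on simulated data. normexp used limma 3.58.1, and the rest Python 3.11.15 with pandas 2.3.3.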

Additional observations from a re-analysis of the deposited data

Results flagged for a closer look

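Signals outside the comparison drew attention in 2 places. The positive control set named hur_6 in the files had a scaled log2 difference of 1.09 between late torpor and post-reproduction over its 3 probes, with mean intensities of 17300 and 9240 units and 9503 in early arousal. The sets hur_1, hur_2, hur_4 and mr_1 differed by 0.43, 0.54, 0.46 and 0.40, and the corner set miRNABrightCorner30 differed the other way, by -0.26, with 161 units in late torpor and 219 in post-reproduction. What these control probes bind is not stated in the files.

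The viral entry mghv-miR-M1-2, of a mouse herpesvirus, was detected with 4 of 4 probes on both arrays, and its brightest probe read 26.5 units in late torpor and 26.6 in post-reproduction. Of the other 9 viral entries, 1 (mghv-miR-M1-8) was detected in late torpor, by 1 probe, and none in post-reproduction.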

How the results depend on the processing

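No paired analysis was possible because each stage has 1 array and the labels give no replicate numbers. Leaving out an array leaves no comparison, and seeds of bases 2 to 7 were not run for lack of sequences. Scaling on all probes put the median of all members at 0.00717, on the probes of the 2 arrays at -0.0424, on the median at 0.0207 and on the total gene signal at -0.146. It was -0.059 with no scaling and -0.0206 with quantile normalization. In this order of settings the members at least 1.5-fold higher numbered 7, 7, 8, 3, 7 and 7, and those at least 2-fold lower 2, 2, 2, 3, 2 and 1. With the total gene signal, whose counts used the fold alone without the SE and the probe signs, 12 were at least 1.5-fold lower. With normexp, whose offset of 50 units compresses dim probes, 1 was 2-fold higher, 0 were 2-fold lower, 4 were 1.5-fold higher and 0 lower, and 3 lay 1.5-fold above the median and 0 below it. Among the brighter 50% of members 0 were 2-fold lower, 7 were 1.5-fold higher and 1 lower, with 4 above and 1 below the median by 1.5-fold. With no filter on dim probes 19 and 5 were 2-fold and 37 and 12 were 1.5-fold higher and lower, with 32 above and 18 below the median. Of the alternatives chosen after the data were seen, all probes with low spots as deposited gave a median of -0.26, 1 and 7 at 2-fold and 3 and 26 at 1.5-fold. The positive control probes gave -0.43, 0 and 7, and 3 and 44. Members brighter than the viral entry gave 0 at 2-fold lower and 3 at 1.5-fold lower, with 3 below the median. Probes detected on all 3 arrays gave 0 at 2-fold lower, since miR-211 then has no measured probe. None of the 21 members past 1.5-fold changed sign under any setting that gave it a value. Settings that only shift a whole array moved it by less than 1.5-fold, so they could not have reversed a sign. Calls were lost, however. Scaling on all probes or on the probes of the 2 arrays, no scaling and quantile normalization each kept 7 of the 14 higher calls. Lost there were miR-1224, miR-709, miR-223, miR-142-5p, miR-15a, miR-350 and miR-128. The total gene signal, low spots as deposited and the positive control probes each kept 3 of the 14. With normexp 4 of the 14 higher and 0 of the 7 lower calls stayed. miR-211 lost its call with no filter on dim probes, miR-152 and miR-142-5p with the brightest probe, and miR-128 with outlier spots kept. Of the lower calls, miR-211, miR-200a, miR-152 and miR-186 were below the brightest viral entry on at least 1 of the compared arrays. Of the higher calls, miR-142-5p, miR-452 and miR-350 were. Low intensity limits these members most.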

Other observations

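In deposited units, before scaling, a few members were nearly equal in late torpor and post-reproduction and stood apart in early arousal. miR-34a read 74.7 units in late torpor, 81.3 in post-reproduction and 37.1 in early arousal, miR-500 read 28.3, 26.6 and 12.1, and miR-190b read 23.3, 21.3 and 6.69, the last not detected in all its probes. In the other direction miR-449a read 638, 641 and 972. After scaling, the late torpor values of miR-500 and miR-190b were 1.21-fold and 1.25-fold those of post-reproduction. These were chosen after their values were seen.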
